A study of Mus musculus with 12 samples.

Results

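In chromatin of mouse lung endothelial cells, regions that carried acetylation of histone H3 at lysine 23 (H3K23ac) in most libraries of that mark, but lacked counts in a library of another mark, were examined. A region was taken when it had 5 or more counts in at least 3 of the 4 H3K23ac libraries and a count of 0 in at least 1 of the 8 libraries of H3K27ac (acetylation of lysine 27) and H3K4me3 (trimethylation of lysine 4). The rule found 2884 regions, or 45.8% of the 6296 regions that passed this H3K23ac minimum and 0.242% of the 1192075 regions in the table. The other 3412 had a count in all 8 libraries of the other marks and served as the comparison. Passing the minimum in 3 libraries did not make the H3K23ac level repeatable, as its spread below shows. The regions were chosen by these counts of all 3 marks, so the H3K23ac levels and the zeros are given as a description, without a test.

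The cells are labelled either WT and Cre-negative or CSE-KO and Cre-positive (Cre is the recombinase used to delete a gene), with 2 libraries per genotype and mark and 12 in all. CSE (cystathionine gamma-lyase, encoded by Cth) is an enzyme that makes cysteine from cystathionine. Each mark was profiled by ACT-seq. In this assay the antibody to a mark is bound by a fusion of Protein A with the transposase Tn5, which inserts sequencing adaptors into nearby chromatin. The labels give neither the Cre line, nor the age or number of the animals, nor whether each replicate is an animal of its own. The p-values therefore measure only how these libraries vary, possibly for technical reasons, and Cre and the knockout cannot be told apart. The table names each region by a list number and a running number and gives no coordinate, gene, length or sequence, so neither endothelial marker genes nor the deletion of Cth were checked here.

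The marks differ in where they are usually found. H3K4me3 is laid down by SET1 and MLL methyltransferases at the start sites of active genes, and enhancers carry little of it. H3K27ac is laid down by the acetyltransferases p300 and CBP at active promoters and at active enhancers. H3K23ac, to which acetyltransferases of the KAT6 family contribute, is a less studied acetylation of the same histone tail and also occurs in active chromatin. The combination of marks in a region is therefore commonly used to describe what kind of element it is, which was not attempted here for regions without coordinates.

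Levels are given as CPM (the count over the library's total count, on the usual scale), and the totals ran from 396441 to 4242014. A single count was worth between 0.236 and 2.52 CPM. Region lengths are not in the table, so a level includes the length of its region. Every H3K23ac library had most of its counts in the list of regions named after it, its own list. In 3 libraries the share of counts in the own list was larger than in the other libraries of the mark. For WT H3K23ac replicate 2 this share was 93.4% (80.8% to 84.5% in the other H3K23ac libraries), for CSE-KO H3K27ac replicate 1, the deepest library, 41% (10.8% to 15.6% in the others), and for WT H3K4me3 replicate 2 39.4% (15.1% to 19.8%). Without them the rule found 1821 (with all 3 remaining H3K23ac libraries past the minimum), 2875 and 2490 regions, respectively. Without another H3K23ac library it found 792 to 884.

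H3K4me3 was the mark most often missing, as it was over the whole table, where each H3K4me3 library was at 0 in 91% to 93% of all regions and each H3K27ac library in 55.6% to 69.4%. In 2064 regions (71.6%) only H3K4me3 libraries were at 0, and H3K27ac was counted in all 4 of its libraries. In 589 regions (20.4%) only H3K27ac libraries were at 0, and H3K4me3 was counted in all 4. The remaining 231 regions (8.01%) had a 0 in both marks. Without WT H3K4me3 replicate 2 the classes held 67.1%, 25.3% and 7.59% of 2490 regions, and without WT H3K23ac replicate 2 they held 72.7%, 20.3% and 7.03% of 1821.

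All 4 H3K4me3 libraries were at 0 in 374 regions (13%), 3 of them in 533 (18.5%), 2 in 608 (21.1%) and 1 in 780 (27%). For H3K27ac, 1 library was at 0 in 642 regions (22.3%), 2 in 144, 3 in 28 and all 4 in 6 regions (0.208%). Counting both marks, 1159 regions (40.2%) had a single library at 0 and 1 region had a 0 in all 8. The grid of zeros shows the same in numbers of regions, with its largest cell, 700 regions, at 1 H3K4me3 library and no H3K27ac library at 0.

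**Figure D1:**
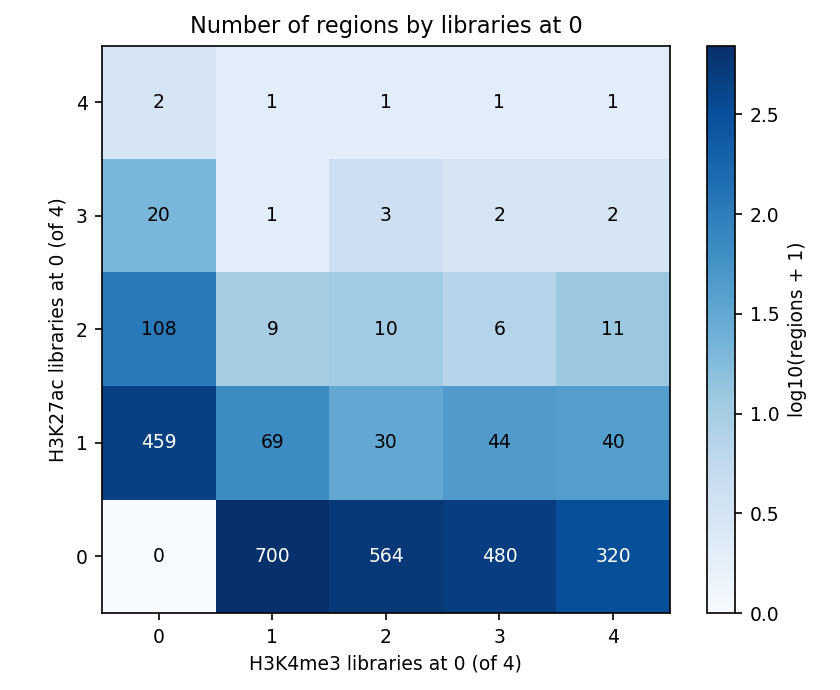
Number of regions for each combination of H3K4me3 libraries at 0 (horizontal axis, of 4) and H3K27ac libraries at 0 (vertical axis, of 4); the colour is log10 of the number plus 1. The lower row, with H3K27ac counted in all 4 libraries, holds 700, 564, 480 and 320 regions, and its left cell is empty by the rule.

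Depth set what a 0 allows. With a limit of 3 counts, a 0 in a single H3K4me3 library still allows between 5.32 and 7.57 CPM, and a 0 in a single H3K27ac library between 0.707 and 2.7 CPM. Over the 4 libraries together, 0 counts allow 1.53 CPM of H3K4me3 and 0.375 CPM of H3K27ac. These limits cover counting error only. A single 0 in H3K4me3 thus does not show that the mark was absent, whereas 374 regions lay under 1.53 CPM of H3K4me3 in all. The H3K27ac libraries, with more counts each, allow the closer limit.

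The library at 0 did not follow depth alone. WT H3K4me3 replicate 2, with 563330 counts among the deeper libraries of its mark, was at 0 in 1751 regions (60.7%), against 1106 (38.3%), 1090 (37.8%) and 1144 (39.7%) in WT replicate 1 and CSE-KO replicates 1 and 2. Over all regions these shares were 93%, 91.8%, 91% and 91.8%. Among the regions with a single 0, that library held the 0 in 394 (34%), and the other 3 H3K4me3 libraries then had a median mean level of 7.45 CPM. In 43 of these 394, each of the other 3 H3K4me3 libraries had 5 or more counts. The part that the library's large own list plays in this was not tested. Of the H3K27ac libraries, CSE-KO replicate 1 was at 0 in 30 regions (1.04%) and the others in 294 to 371.

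Regions with a 0 only in H3K4me3 libraries carried H3K27ac about as high as the comparison regions. Their median mean level was 5.72 CPM of H3K27ac and 2.17 CPM of H3K4me3, against 5.06 and 36.4 CPM in the 3412 comparison regions. In 700 of these 2064 regions a single H3K4me3 library was at 0, and in 320 all 4 were, so most still had counts of that mark. H3K27ac medians over these 2064 regions were 4.44 and 7.21 CPM in the WT libraries and 5.42 and 5.44 CPM in the CSE-KO libraries. In the comparison regions they were 4.44, 6.3, 4.71 and 4.66 CPM, in the same order. In 970 of the 2064 (47%) each H3K27ac library had 5 or more counts, and so did 1458 of the 3412 (42.7%).

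Regions with a 0 only in H3K27ac libraries showed the opposite pairing. Each class asks for a 0 in 1 mark and none in the other, which favours this, so it is a description. In 459 of the 589 regions a single H3K27ac library was at 0, so most still had counts of that mark. The median mean level over these 589 regions was 27 CPM of H3K4me3 and 1.35 CPM of H3K27ac. H3K4me3 medians were 27.7 and 26.6 CPM in WT against 30.2 and 23 CPM in CSE-KO, below the 35.3, 30.2, 39 and 36.8 CPM of the comparison regions. Each H3K4me3 library had 5 or more counts in 394 of the 589 (66.9%), against 2419 of the 3412 comparison regions (70.9%). The 231 regions with a 0 in both marks had medians of 1.49 CPM of H3K27ac and 2.22 CPM of H3K4me3.

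**Figure D2:**
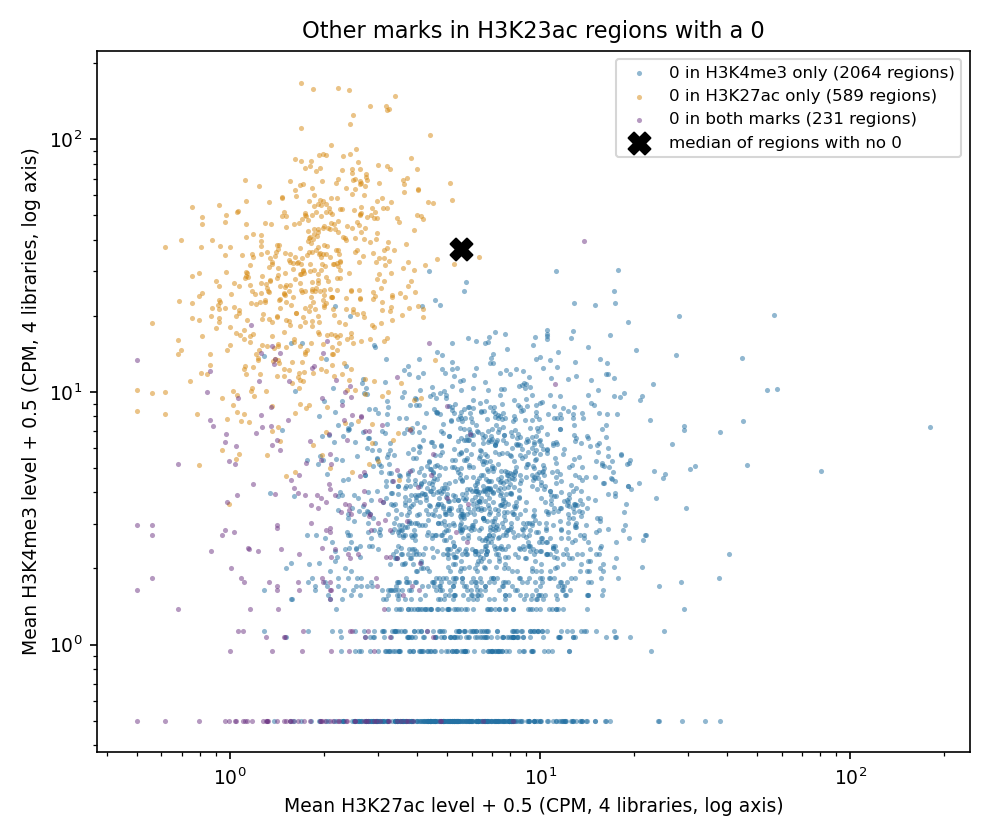
Mean H3K27ac level against mean H3K4me3 level of the 2884 regions (CPM plus 0.5, log axes, mean of 4 libraries each), coloured by the mark that has the 0. Regions with a 0 only in H3K4me3 lie to the lower right and those with a 0 only in H3K27ac to the upper left, while the cross marks the medians of the comparison regions, 5.06 CPM of H3K27ac and 36.4 CPM of H3K4me3, before 0.5 was added.

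As a whole, H3K27ac exceeded H3K4me3 in 1795 of the 2884 regions (62.2%) by mean CPM, whereas it did so in 243 of the 3412 comparison regions (7.12%). In 751 regions every H3K27ac library lay above every H3K4me3 library, and in 545 every H3K4me3 library lay above every H3K27ac library. The mean levels of the 2 marks had a rank correlation of -0.316 across the 2884 regions and of 0.0618 across the comparison regions. The regions were chosen for a 0 in these marks, most often in H3K4me3, and the comparison regions for having none, which favours the contrast of these shares. The marks differ in library totals and the points share their libraries. The shares and coefficients are therefore a description.

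H3K23ac itself was lower in these regions than in the comparison regions, and it varied widely between libraries. The median of the mean level was 11.4 CPM (2.6 to 78.2), against 16.3 CPM (2.47 to 301) in the comparison regions. Medians by library were 7.64 and 3.25 CPM in WT replicates 1 and 2 and 9.43 and 11.6 CPM in CSE-KO replicates 1 and 2. The upper quartile of WT replicate 2 was nonetheless 19.5 CPM, close to the 19.4 CPM of CSE-KO replicate 1, since this library was at 0 in 1017 regions (35.3%) and high in others. It was the lowest of the 4 in 1457 regions (50.5%) and the highest in 785 (27.2%), much as in the comparison regions (51.1% and 24.2%).

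**Figure D3:**
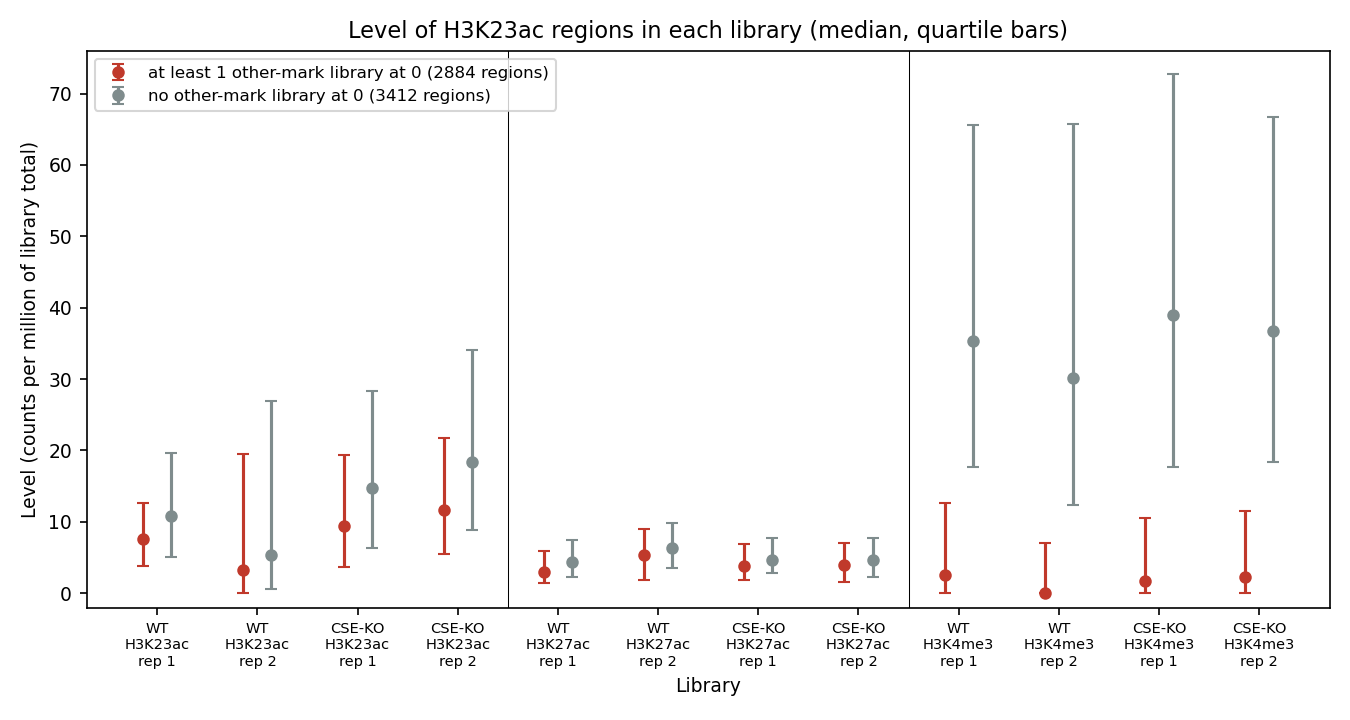
Level in each of the 12 libraries (CPM, linear axis) of the 2884 regions with a 0 in another mark and of the 3412 without, as the median with bars from the lower to the upper quartile. The 2 sets lie closest in H3K27ac and furthest apart in H3K4me3, where the medians are 0 to 2.52 CPM against 30.2 to 39 CPM.

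Few regions held H3K23ac evenly. The coefficient of variation over the 4 libraries had a median of 94% (10.1% to 180%), against 87.2% in the comparison regions. In the same regions it was 52.1% for H3K27ac, over 2878 with a count, and 112% for H3K4me3, over 2510 with a count, against 40.9% and 37.1% in the comparison regions. The rule asks for a 0 in these 2 marks, which raises this coefficient, and the comparison regions have none. H3K4me3 also had a median of only 0 or 1 count in each library. The contrast in these marks is therefore a description of the choice. In 1824 regions (63.2%) more than 50% of the summed H3K23ac CPM came from 1 library, and in the comparison regions this was so in 1859 (54.5%). Only 490 regions (17%) reached 5 counts in all 4 H3K23ac libraries, against 1245 of the comparison regions (36.5%). The library under 5 counts was WT replicate 2 in 1331 regions (46.2%), WT replicate 1 in 367, CSE-KO replicate 1 in 394 and CSE-KO replicate 2 in 302. At the boundary of the rule, 447 regions (15.5%) had a third-highest H3K23ac count of exactly 5, while 604 regions with a 0 in another mark had one of 4.

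Libraries ordered the regions alike in H3K27ac and H3K4me3, but not in H3K23ac. Across the 2884 regions the rank correlation of library pairs had a median of 0.684 for H3K27ac (0.61 to 0.771, 6 pairs) and of 0.553 for H3K4me3 (0.488 to 0.626). For H3K23ac it was -0.0494 (-0.192 to 0.0454), and 0.14 in the comparison regions (0.011 to 0.241). The minimum in 3 of 4 libraries acted on the same counts, and its part in this correlation was not tested. The mean H3K23ac level had a rank correlation of 0.342 with mean H3K27ac and of 0.0669 with mean H3K4me3, below the 0.427 and 0.273 of the comparison regions, over regions whose lengths are not given.

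The 6 regions with the highest mean H3K23ac level, 58.2 to 78.2 CPM, all had a single 0, in an H3K4me3 library. Foremost was peak2_32981, with 17 and 533 H3K23ac counts in WT against 1 and 19 in CSE-KO, so that 92.2% of its H3K23ac CPM came from WT replicate 2. The region peak8_82584 had 70 and 28 H3K23ac counts in WT against 152 and 191 in CSE-KO, with both CSE-KO libraries above both WT libraries. Its H3K27ac counts were 15 and 15 in WT against 25 and 6 in CSE-KO, and its H3K4me3 counts 13 and 1 in WT against 3 and 0 in CSE-KO. The region peak7_75623 carried the highest H3K27ac of the 6, a mean of 53.3 CPM with 38, 66, 282 and 76 counts in the WT and CSE-KO libraries in turn, beside 113, 9, 238 and 88 H3K23ac counts. In peak7_79417, peak7_104448 and peak2_37047 the 0 lay in WT H3K4me3 replicate 2, and the mean levels of H3K4me3 were 8.79, 7.65 and 6.09 CPM.

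The 4 regions with the most even H3K23ac all had their 0 in a single H3K27ac library, with H3K4me3 counted in all 4. In peak8_95378 the H3K23ac counts were 31 and 36 in WT against 38 and 35 in CSE-KO, a coefficient of variation of 10.1%. It had 1, 0, 3 and 3 counts of H3K27ac and 6, 22, 20 and 6 counts of H3K4me3 over the same order of libraries. The regions peak7_50449, peak8_27684 and peak7_77216 varied by 10.9%, 12.8% and 13.6%, with mean H3K23ac of 7.1, 16.9 and 5.95 CPM. Of these, peak7_77216 had the highest H3K4me3, 25 and 39 counts in WT against 38 and 24 in CSE-KO, or a mean of 63.7 CPM. H3K23ac there lay between 5.24 and 7.01 CPM in every library, with no separation of the genotypes.

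Regions without any H3K4me3 count could carry strong H3K27ac. In peak9_77824 the H3K27ac counts were 48 and 38 in WT against 184 and 47 in CSE-KO, which is 35.5, 34.2, 43.4 and 36.5 CPM, with little spread between libraries. H3K23ac in this region was 16 and 0 counts in WT against 6 and 7 in CSE-KO. The region peak1_19952 held 53, 34, 103 and 51 counts of H3K27ac beside 135, 0, 55 and 7 of H3K23ac, of which WT replicate 1 gave most. In peak2_12886 and peak2_24492, also without H3K4me3, the mean H3K27ac levels were 28.1 and 23.6 CPM and the mean H3K23ac levels 30.5 and 13.1 CPM. Of the 374 regions without H3K4me3, 113 (30.2%) had 5 or more H3K27ac counts in all 4 libraries.

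Only 6 regions had no H3K27ac count at all. Their median mean level of H3K4me3 was 5.18 CPM (0 to 12.9), against 3.11 CPM over all 2884 regions. In the 589 regions with a 0 only in H3K27ac it was 27 CPM. The highest was peak8_97136, with 0 and 8 H3K4me3 counts in WT against 3 and 14 in CSE-KO, and 0, 50, 30 and 33 counts of H3K23ac. In peak8_60101 the H3K4me3 counts were 4, 1, 6 and 7, in peak6_6899 they were 3, 2, 5 and 5, and in peak7_82974 they were 0, 3, 0 and 2. The region peak2_18204 was the one without a count of either other mark, under 0.302 CPM over the 8 libraries. Its H3K23ac counts were 9 and 68 in WT against 5 and 0 in CSE-KO, so the mark rested mainly on WT replicate 2. With 7 libraries at 0 followed peak7_81622 (5, 0, 43 and 14 H3K23ac counts), peak7_41353 (14, 0, 8 and 22) and peak1_57498 (16, 6, 0 and 9).

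The rule's edge passed between regions of similar counts. Just inside, peak1_64938 had 38, 0, 5 and 15 H3K23ac counts and a 0 in WT H3K4me3 replicate 2, and peak1_65358 had 56, 0, 20 and 5 with the same library at 0. Just outside, peak1_11195 had 73, 0, 32 and 4 H3K23ac counts with a 0 in that library, and peak1_14512 had 28, 0, 5 and 23 with no 0 in another mark. Of the comparison regions, 914 had a lowest count of 1 among the 8 libraries.

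Most of these regions were named in H3K23ac lists, where the list number in a region's name was read as the library number in the labels. The H3K23ac lists held 2545 of them (88.2%), the H3K4me3 lists 195 (6.76%) and the H3K27ac lists 144 (4.99%), against 79.6%, 15.9% and 4.54% of the comparison regions. By list, WT H3K23ac replicate 2 gave 807 (28%), CSE-KO replicate 2 gave 762 (26.4%), CSE-KO replicate 1 gave 670 (23.2%) and WT replicate 1 gave 306 (10.6%), although the last of these lists was the longest, with 147936 names. Within each H3K23ac list the library it is named for was usually the highest, in 65.7% to 79.3% of the regions. Median H3K23ac in the list of WT replicate 2 was 34.1 CPM in that library and 6.29 to 8.18 CPM in the other 3, and in the list of CSE-KO replicate 1 it was 23.6 CPM in that library and 0 CPM in WT replicate 2.

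**Figure D4:**
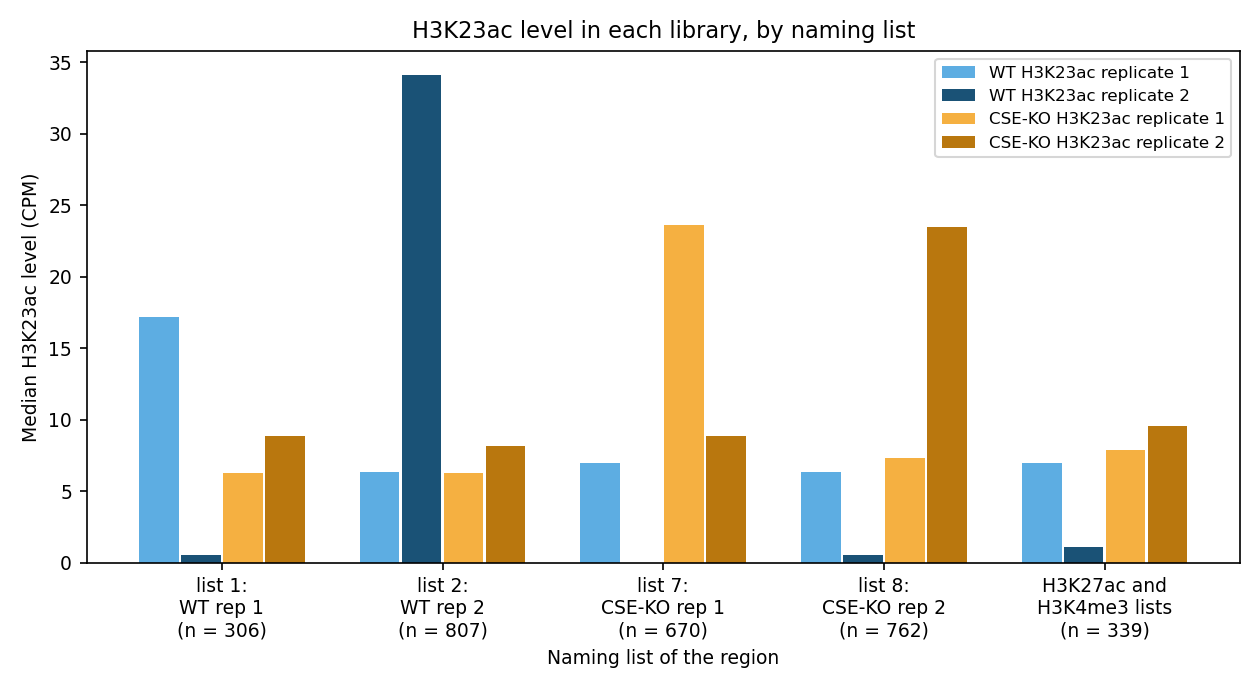
Median H3K23ac level (CPM, bars from 0) of the regions in each of the 4 H3K23ac naming lists and in the lists of the other marks together, for each H3K23ac library. In each H3K23ac list the bar of the list's own library is the tallest, while in the lists of the other marks the medians are 7.01, 1.08, 7.86 and 9.55 CPM.

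In the lists of the other marks the 0 lay mostly in the mark that the list is not named for. The rule asks for a 0 in 1 of these marks, which favours this split, so it is a description. Regions of the H3K4me3 lists had a median of 29.3 CPM of H3K4me3 and 1.39 CPM of H3K27ac, and 173 of 195 (88.7%) had a 0 in H3K27ac. In the H3K27ac lists the medians were 3.3 CPM of H3K4me3 and 8.91 CPM of H3K27ac, and 140 of 144 (97.2%) had a 0 in H3K4me3. Of these 144, 116 had the list number of CSE-KO H3K27ac replicate 1, which has the most counts. In the 2545 regions of the H3K23ac lists, 83.5% had a 0 in H3K4me3 and 25% a 0 in H3K27ac. Without coordinates it cannot be told whether the same places also stand in lists of the other marks. The 339 regions of the other marks' lists were still uneven in H3K23ac, with a median coefficient of variation of 84.1%, and WT H3K23ac replicate 2 had under 5 counts in 185 of them (54.6%).

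The genotypes, which the labels set against each other, were compared mark by mark. No region with a 0 in another mark passed the threshold in any of the 3 marks. The test was edgeR's quasi-likelihood test with library totals as size, fitted to all regions with enough counts in the mark, with Benjamini-Hochberg adjustment and a threshold of 0.05. The filter on low counts was passed by 2436 of the 2884 regions for H3K23ac, 742 for H3K27ac and 462 for H3K4me3, so most regions had too few counts of the other marks to be tested.

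For H3K23ac, edgeR called 0 of 12365 regions (0%), and 628 (5.08%) had an unadjusted p under 0.05, of which 1, lower in CSE-KO, was among these regions (3.62% of all tested were higher and 1.46% lower). The same libraries chose the regions, and requiring counts in 3 of 4 libraries removes those present in 1 genotype alone, so nothing is read from that count. With DESeq2 there were 110 calls (2 higher, 108 lower) and 8630 regions without an adjusted p. None of its calls were among these regions. How many of the 2436 tested here had an adjusted p was not counted, and the same libraries chose them, so nothing is read from that. Of these regions 46 (1.89%, 1 higher and 45 lower) had an unadjusted p under 0.05, against 1014 (8.2%, 479 higher and 535 lower) of all tested. The edgeR split ran the other way, with 448 higher and 180 lower. As a description, the median log2 fold change (CSE-KO over WT, mean CPM plus 0.5) of all 2884 was 0.70, with medians of 7.28 CPM in WT and 12.5 CPM in CSE-KO. It was 0.73 in the comparison regions and -0.62 in all 288103 regions with an H3K23ac count. Of those 288103, 115464 had no count in WT and 131899 none in CSE-KO, so most of their ratios rest on the added 0.5 CPM. Over the 12365 tested regions the edgeR median was 0.75. The naming lists went opposite ways, with medians of -0.26 in the list of WT replicate 1 and -1.16 in that of WT replicate 2 (81% lower), but of 1.69 and 1.62 in those of CSE-KO replicates 1 and 2 (89.7% and 89.9% higher). Split by the library that fell under 5 counts, the median was 1.61 where this was WT replicate 2, 0.58 for WT replicate 1, -1.29 for CSE-KO replicate 1 and -1.39 for CSE-KO replicate 2. Both splits use the counts that form the ratio, which favours these signs, so they describe what the pooled median is made of and are no finding on the genotypes. In the 490 regions with 5 or more counts in all 4 libraries the median was -0.03, with 237 higher and 253 lower in CSE-KO. Leaving out a library gave medians of 2.08 (WT replicate 1), 0.65 (WT replicate 2), 0.54 (CSE-KO replicate 1) and 0.28 (CSE-KO replicate 2). With TMM factors, which scale libraries on the bulk of regions, the median was 0.21, and that of all tested regions went from 0.75 to 0.19. In the edgeR fit the median of the 2436 tested regions was 0.70 with library totals, -0.02 with DESeq2 size factors (0.04 over all tested) and 1.69 with the replicate number as a block, so neither its sign nor its size was settled.

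**Figure D5:**
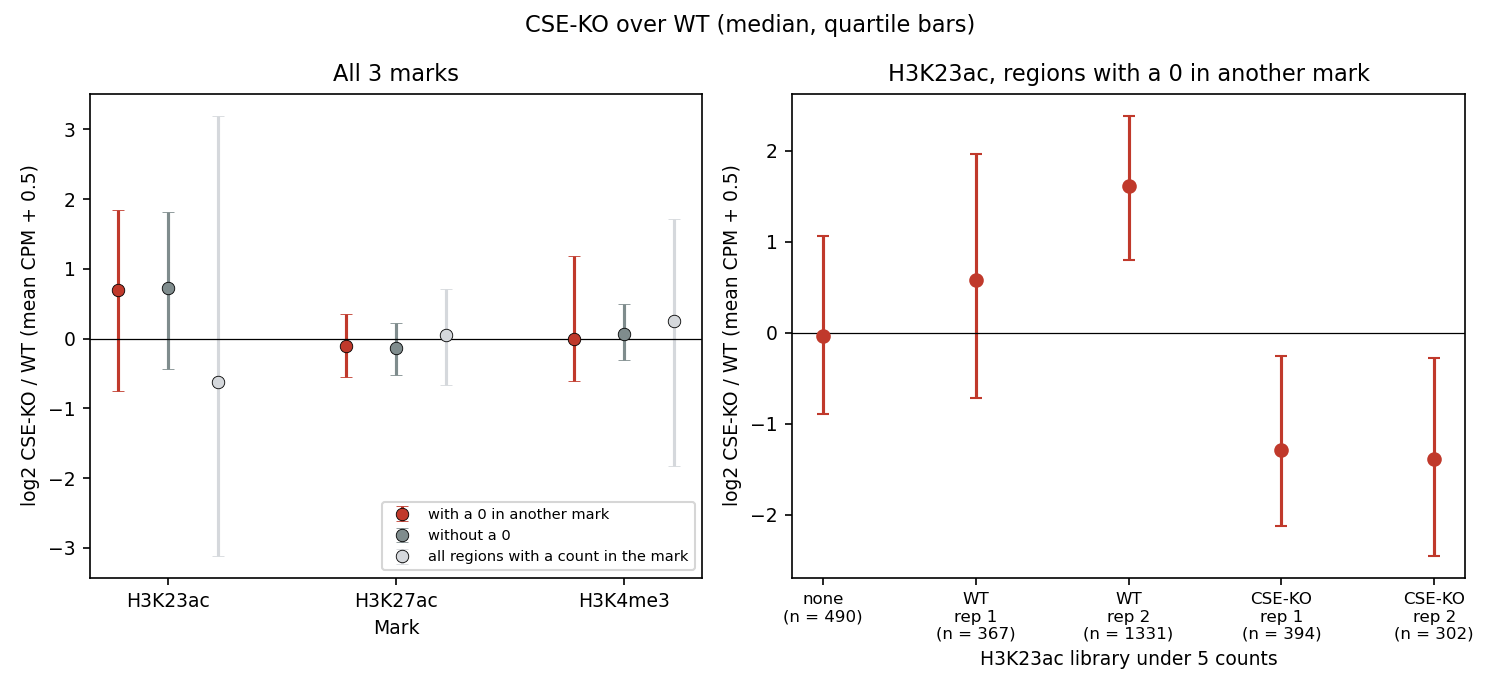
Left, log2 ratio of CSE-KO to WT for each mark (median with quartile bars) in regions with a 0 in another mark, in regions without a 0 and in all regions with a count in the mark; right, the H3K23ac ratio of the regions with a 0, split by the H3K23ac library with under 5 counts. On the right the median is -0.03 where no library is under 5, and elsewhere its sign is that favoured by the split itself, which uses the counts of the ratio.

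Large differences in H3K23ac lay short of the threshold. Its biological coefficient of variation was 158%, against 36.4% for H3K27ac and 37.4% for H3K4me3. The region with the lowest p among those lower in CSE-KO was peak2_32981, from 10.8 and 288 CPM in WT to 0.524 and 13 CPM in CSE-KO, a log2 fold change of -4.47 (standard error, SE, 1.46, edgeR adjusted p = 0.504). Its WT libraries differed more from each other than WT replicate 1 did from CSE-KO. Among those higher in CSE-KO it was peak7_58890, with 5 and 0 counts in WT against 132 and 42 in CSE-KO (log2 fold change 4.90, SE 2.41, edgeR adjusted p = 0.508). Both libraries of CSE-KO lay above both of WT there, as they did in 707 of the 2436 tested regions (29%), where the share over all tested regions was 30.1%, and the reverse held for 233 (9.56%, against 8.33% over all).

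H3K27ac in these regions was close between genotypes. The median log2 fold change was -0.11 over the 2884 regions, with medians of 4.39 CPM in WT and 3.91 CPM in CSE-KO, beside -0.14 in the comparison regions and 0.05 in all 606015 regions with an H3K27ac count. In the 2064 regions without a 0 in H3K27ac, in which this mark did not supply the 0, it was -0.14, with 817 higher and 1247 lower in CSE-KO. With edgeR 0 of 10666 regions were called (0%) and 363 (3.4%) had an unadjusted p under 0.05, and of the 742 tested regions with a 0 in another mark these were 0 and 15 (2.02%). DESeq2 called 0, with 166 (1.56%) at an unadjusted p under 0.05 and 3 (0.404%) among the 742. Libraries did not overlap in 67 of the 742 (9.03%) in favour of CSE-KO and in 114 (15.4%) in favour of WT, against 17.4% and 13.3% over all tested regions.

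The direction of the H3K27ac median depended on the library size used. With TMM factors the median of the 2884 was -0.13, and with the counts outside the own list as size it was 0.19. Of the 15 regions at an unadjusted p under 0.05, 5 were higher and 10 lower in CSE-KO (1.88% and 1.52% of all tested), which became 5 and 15 with TMM factors and 7 and 1 with the counts outside the own list. All tested regions moved likewise, from 201 higher and 162 lower to 218 and 263 with TMM factors and 453 and 43 with the counts outside the own list. Leaving out WT replicate 1 gave a median of -0.32, CSE-KO replicate 1 one of -0.18 and CSE-KO replicate 2 one of -0.07. Without WT replicate 2 it was 0.24. The region peak9_41945 had 0 and 18 counts in WT against 66 and 14 in CSE-KO, and its log2 fold change was then 7.98. In that fit the only WT library left was the one at 0, which meets the rule, so nothing is read from it. With all 4 libraries, the lowest p went to peak9_128054 on the higher side, with 7 and 1 counts in WT against 59 and 14 in CSE-KO (3.04 ± 3.03 and 12.4 ± 2.14 CPM, SD, n = 2 each; edgeR adjusted p = 1). On the lower side peak2_44421 had 26 and 19 counts in WT against 26 and 9 in CSE-KO. The mean CPM was 18.2 ± 1.5 and 6.56 ± 0.614, respectively (SD, n = 2 each; log2 fold change -1.48, SE 0.537, edgeR adjusted p = 1).

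H3K4me3 showed no common direction over all of these regions. Of the 2884 regions 1332 were higher and 1178 lower in CSE-KO, 374 had no count, and the median log2 fold change was 0.00. With a group without counts set to 3 counts over the group, 1641 regions gave a ratio and their median was 0.11. In the 589 regions without a 0 in H3K4me3 it was -0.10, beside 0.06 in the comparison regions. For all 228865 regions with an H3K4me3 count the median was 0.25, and -0.10 with groups without counts at the 3-count floor. Without WT replicate 1 the median of the 2884 was 0.56. With edgeR 0 of 10960 regions were called (0%), with 485 (4.43%) at an unadjusted p under 0.05, and of the 462 tested regions with a 0 in another mark these were 0 and 14 (3.03%). DESeq2 called 0, with 187 (1.71%) at an unadjusted p under 0.05 and 7 (1.52%) among the 462. In the edgeR fit the median log2 fold change of the 462 was -0.09, beside 0.12 over all tested. It was -0.25 with TMM factors (-0.02 over all tested) and -0.31 with the counts outside the own list as size (-0.07). Without a filter, over 2510 of these regions, it was 0.14 (0.25 over all tested).

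Single H3K4me3 values stood apart without passing. In peak8_66620 the H3K4me3 counts were 3 and 3 in WT against 13 and 24 in CSE-KO. The mean CPM was 6.45 ± 1.59 and 39.1 ± 22.7, respectively (SD, n = 2 each; log2 fold change 2.56, SE 0.816, edgeR adjusted p = 1). In peak8_10626 they were 20 and 36 in WT against 14 and 4 in CSE-KO. The mean CPM was 57.2 ± 9.52 and 17 ± 11.1, respectively (SD, n = 2 each; edgeR adjusted p = 1). The genotypes did not overlap in either region, as in 65 of the 462 (14.1%) with CSE-KO higher and 91 (19.7%) with WT higher, where 21.7% and 12.3% of all tested regions did so. Of the 14 regions at an unadjusted p under 0.05, 6 were higher and 8 lower (3.37% and 1.06% of all tested), which became 2 and 17 with TMM factors, while all tested regions went from 369 and 116 to 244 and 234. The region peak2_67003 had 15 and 48 counts in WT against 19 and 0 in CSE-KO. Without CSE-KO replicate 1 its log2 fold change was -7.86. In that fit the only CSE-KO library left was the one at 0, which meets the rule, so nothing is read from it.

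Summed over the 2884 regions, the genotypes differed little in the other marks. The regions held 1.31% and 1.97% of the H3K27ac counts in WT against 1.52% and 1.49% in CSE-KO, and 2.9% and 2.5% of the H3K4me3 counts in WT against 2.82% and 2.61% in CSE-KO, so the CSE-KO values lay between those of WT in both marks. For H3K23ac the shares were 2.89% and 3.81% in WT against 3.95% and 4.61% in CSE-KO, or 3.35% ± 0.647 and 4.28% ± 0.47 (SD, n = 2 each), without overlap. Both these and the comparison regions were chosen by H3K23ac counts, with WT replicate 2 most often the library under the minimum. Nothing is therefore read from the H3K23ac shares on the genotypes. The widest Wilson 95% interval of these shares, for WT H3K4me3 replicate 1, ran from 2.84% to 2.95%, which covers counting error only. No permutation test was run on these shares, since the smallest exact two-sided p for 2 libraries against 2 is 0.333. In the comparison regions the H3K23ac shares were 5.24% and 6.14% in WT against 7.34% and 8.78% in CSE-KO.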

How the data were processed

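The authors deposited raw counts, whole numbers per region and library, for all 12 libraries and without normalization. Per the submitters' processing notes, ChIPseeker 1.38.0, edgeR 4.0.16, R 4.3.3 and Subread were used, and GRCm39 and mm10 appear as builds, all without a role. The sources used here do not give the aligner, peak caller or duplicate removal. Of 1192075 regions, 560127 had no count.

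Regions, lists and tests were chosen with earlier results of these data known. Named regions are the 6 highest and 4 most even in H3K23ac, the 4 with most zeros, the 4 highest in each mark without the other, the lowest p per mark and direction, and 4 at the rule's edge. Regions named from fits without 1 library were picked after their values were seen. Two-sided tests used edgeR 4.0.16 (glmQLFit, glmQLFTest) in the 4 libraries of a mark, with library totals as size, filterByExpr (minimum count 10) and adjustment by Benjamini-Hochberg. The fit was tested on simulated data, drawn with a common spread for all regions of a mark. It called most of the largest changes in H3K27ac and H3K4me3 but none in H3K23ac. The lack of H3K23ac calls therefore does not show that the genotypes were alike. How many smaller changes were called in H3K27ac and H3K4me3 is not given here. DESeq2 1.42.0 was the second tool. Levels and shares were computed with pandas 2.3.3, numpy 2.4.6 and scipy 1.17.1 in Python 3.11.15. Replicates differed by more than counting noise (chi-square per degree of freedom 2.05 to 28.6) and stayed separate. Intervals cover counting error only.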

Additional observations from a re-analysis of the deposited data

How the results depend on the processing

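Under other rules the number of regions was 1387 with a minimum of 10 counts, 4434 with 3 counts, 490 with all 4 H3K23ac libraries past the minimum and 1725 with at least 2 libraries at 0, and their shares of the H3K23ac counts were 2.33%, 5.01%, 0.972% and 2.14%, against 2884 and 3.81%. Without 1 library, a choice made after the data were seen, they ran from 792 to 2875 and from 1.34% to 3.8%. The number of regions called in CSE-KO over WT by edgeR, 0 in each mark, was for H3K23ac 1 without a filter and 110 with DESeq2. For H3K27ac it was 3 with TMM factors, 3 with DESeq2 size factors, 6 with counts outside the own list as size, 8 without a filter and 2 with the replicate block. For H3K4me3 it was 1 with counts outside the own list, 16 without a filter and 4 with the replicate block. Leaving out a library gave 0 to 0, 0 to 33 and 0 to 4 calls, the highest without WT H3K27ac replicate 2 and CSE-KO H3K4me3 replicate 1. None of these calls fell on the regions with a 0 in another mark, except in H3K27ac and H3K4me3 when a library was left out. There 1 group held only the library at 0, so nothing is read from that. Nor is anything read from the lack of H3K23ac calls, for the reasons given with them. The replicate numbers were not shown to pair the samples, with correlations of -0.00795, -0.0195 and -0.0305 between the genotypes' deviations. The median log2 fold change ran from 0.28 to 2.08 for H3K23ac, -0.32 to 0.24 for H3K27ac and 0.00 to 0.56 for H3K4me3 without 1 library. It was 0.19 for H3K27ac with counts outside the own list and -0.1 for H3K4me3 in regions without a 0 in that mark, a choice made after the data were seen. Other scalings moved the median of all tested regions from 0.75 to 0.19 (H3K23ac) and 0.12 to -0.02 (H3K4me3) with TMM factors, and from 0.06 to 0.41 (H3K27ac) with counts outside the own list. With TMM factors the split of regions at an unadjusted p under 0.05 went from 201 higher and 162 lower to 218 and 263 for H3K27ac, and from 369 and 116 to 244 and 234 for H3K4me3. For H3K23ac it went from 448 and 180 to 406 and 317 with DESeq2 size factors. The cause was not tested. Of 121 alternatives 83 stayed within the spread between libraries or, for counts, within 1.5 times. For the H3K23ac median that spread was 0.898, more than the median of 0.70 itself, so even a changed sign counted as unmoved. Repeated calls of 0 among the regions with a 0 in another mark counted as unmoved too. The tally is therefore no measure of how stable the results are. Depth limits the zeros most in H3K4me3, where a 0 in a library allows up to 7.57 CPM.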
